A study of Mus musculus with 4 samples.

Results

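The genes described here are 10 immediate early and activity-response genes of the mouse retina, namely Egr1, Egr2, Egr3, Egr4, Nr4a1, Nr4a2, Nr4a3, Arc, Npas4 and Ier2. They were taken by symbol from 21832 genes, and each had 1 row with a valid status in every library. Poly(A) RNA had been sequenced from dissociated retina at postnatal day 12 after staining for Cd73, the product of Nt5e that marks the surface of rods and rod precursors, and after sorting into positive (Cd73P) and negative (Cd73N) fractions. Each fraction came from wild type (WT) and from Ezh2-cKO retina, which gave 4 libraries with 1 library per group. The mice were of the ICR background, and Ezh2-cKO animals carried floxed Ezh2 alleles with Dkk3-Cre, which is active in retinal progenitors from an early embryonic stage. The controls were normal littermates, and how many retinas entered each library is not given in the sources used here. Both fractions had gone through enzymatic dissociation, staining and sorting before RNA was made. The part of these steps in the levels given below was not tested.

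Immediate early genes are transcribed within minutes of a stimulus, without new protein synthesis, through kinases that act on factors already bound at their promoters, such as SRF with its Elk partners and CREB. In neurons the stimulus is membrane depolarisation and calcium entry, and in glia and other cells it is growth factors, injury or handling. The EGR proteins are zinc finger transcription factors and the NR4A proteins are orphan nuclear receptors that act without a known ligand in most settings. Arc acts at synapses in the removal of glutamate receptors from the membrane, Npas4 is a bHLH-PAS factor induced by calcium in neurons, and Ier2 is a small nuclear protein induced by growth factors. In retina, Egr1 is known as a light-responsive factor of amacrine and bipolar cells and as an early response gene of Müller glia after injury.

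Promoter sequence is shown for the 4 members whose RefSeq start equals the edge of the deposited gene locus, because stimulus-responsive factors such as SRF and CREB are known to bind promoters of this class. Each line gives the 250 bases before the start, written 5′ to 3′ along the gene, from the RefSeq promoter table of build GRCm38.p6 and placed on mm9 by an exact match. Capitals mark 3 kinds of letters, which are the CRE half-site (TGACG or its reverse complement CGTCA, bound by CREB-type factors), the CArG box bound by SRF, and the EGR site (GCGTGGGCG or GCGGGGGCG or a reverse complement).
Egr2, EGR family, chr10:67000367-67000616 (plus strand): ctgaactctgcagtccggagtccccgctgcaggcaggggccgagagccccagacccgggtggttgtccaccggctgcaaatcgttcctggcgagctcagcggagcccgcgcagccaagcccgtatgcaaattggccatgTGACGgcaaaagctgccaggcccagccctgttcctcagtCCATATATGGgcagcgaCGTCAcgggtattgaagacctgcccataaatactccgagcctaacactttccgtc
Nr4a1, NR4A family, chr15:101097027-101097276 (plus strand): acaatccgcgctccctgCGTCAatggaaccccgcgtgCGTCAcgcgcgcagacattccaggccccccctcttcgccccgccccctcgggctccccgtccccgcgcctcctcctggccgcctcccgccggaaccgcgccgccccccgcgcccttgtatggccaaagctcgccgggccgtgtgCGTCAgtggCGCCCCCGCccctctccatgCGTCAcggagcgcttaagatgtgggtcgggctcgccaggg
Nr4a2, NR4A family, chr2:56976415-56976664 (minus strand): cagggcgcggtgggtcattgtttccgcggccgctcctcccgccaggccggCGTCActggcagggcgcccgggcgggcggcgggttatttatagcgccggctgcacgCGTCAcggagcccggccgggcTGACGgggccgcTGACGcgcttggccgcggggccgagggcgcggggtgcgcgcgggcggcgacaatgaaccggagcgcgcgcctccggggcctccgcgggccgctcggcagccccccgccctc
Npas4, bHLH-PAS factor, chr19:4989972-4990221 (minus strand): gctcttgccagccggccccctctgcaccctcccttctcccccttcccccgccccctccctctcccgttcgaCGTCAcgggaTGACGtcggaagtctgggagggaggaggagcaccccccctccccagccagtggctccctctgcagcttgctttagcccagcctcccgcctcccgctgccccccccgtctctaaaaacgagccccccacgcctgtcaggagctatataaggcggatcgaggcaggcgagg

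In the Egr2 promoter a CArG box lay 72 to 63 bases before the start, between CRE half-sites at 111 to 107 and at 55 to 51 bases. The promoter of Nr4a1 held 4 CRE half-sites and an EGR site at 60 to 52 bases before the start, so a match for the EGR proteins was present in an NR4A gene. Nr4a2 also held 4 half-sites, and Npas4 held 2, at 179 to 175 and 169 to 165 bases. RefSeq entries were matched for 6 of the 10 members, Egr2, Egr4, Nr4a1, Nr4a2, Nr4a3 and Npas4, and each of these 6 had a promoter with at least 2 half-sites, where 5.01% of 32851 promoters of 300 bases did and 20.8% held at least 1. The 6 genes had 10 promoter entries, and some entries of Egr2 held 0 half-sites. The count by gene thus stands beside a share by entry, which is not the same measure. The half-site was searched for after the sequences had been seen. A CArG box was in 1.63% of all promoters and an EGR site in 3.47%. The full CRE (TGACGTCA, which contains the half-site on both strands) was in 1.79% and the NR4A site NBRE (AAAGGTCA) in 1.51%, and neither was in any of the 10 promoter entries of these genes. These letters are matches on either strand only, and no binding was measured here.

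The labels were checked first. Ezh2 was at 14.1 FPKM in Cd73N WT and 15.9 in the library labelled Ezh2-cKO, and in Cd73P it was at 5.38 and 3.45 FPKM. In Cd73N the transcript was thus not reduced by its gene-level value, and FPKM summed over a gene cannot tell if a floxed exon is missing. The names Cd73N Ezh2-cKO and Cd73P Ezh2-cKO below follow the labels. Nt5e reached 0.84 FPKM in Cd73N WT and 0.61 in Cd73N Ezh2-cKO, against 125 and 123 FPKM in the sorted Cd73P cells, and 10 of 10 rod markers compared were higher in Cd73P in both genotypes. Xist was also higher in the libraries labelled Ezh2-cKO, at 240.4 against 52.2 FPKM in Cd73N and 95.6 against 47.0 in Cd73P, while the sum of 4 Y-linked genes was lower, at 0.72 against 26.8 FPKM and 0.50 against 27.9. The sex makeup of the libraries therefore differed with the genotype, and its part in the differences given here cannot be told apart from that of the genotype. Read depth relative to Cd73N WT was 1.20 in Cd73N Ezh2-cKO, 0.99 in Cd73P WT and 1.03 in Cd73P Ezh2-cKO, as read from the steps of low FPKM values. Because there was 1 library per group, no difference below has a replicate check. Each standard error (SE) and interval covers counting error only.

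FPKM, the number of fragments scaled to exon length and to the mapped total of the library, allows levels to be compared between genes. Egr1 had the highest level in all 4 libraries, at 113 FPKM in Cd73N WT, 282 in Cd73N Ezh2-cKO, 90.9 in Cd73P WT and 55.5 in Cd73P Ezh2-cKO. The number of genes above Egr1 was 666 in Cd73N WT, 176 in Cd73N Ezh2-cKO, 542 in Cd73P WT and 973 in Cd73P Ezh2-cKO. Ier2 and Nr4a1 followed, and these 3 genes were the members above 10 FPKM in Cd73N WT and in both Cd73P libraries, joined by Arc in Cd73N Ezh2-cKO. Egr2 and Arc lay between 1 and 10 FPKM in Cd73N WT, and the remaining 5 members were under 1 FPKM there. Within each family a single gene carried nearly all of the signal. Egr1 made up 98.3% of the summed FPKM of the EGR genes in both Cd73N libraries, and 99.4% and 99.6% in the Cd73P libraries. Nr4a1 made up between 96.5% and 96.9% of the NR4A sum. Some neighbours in this order had deposited bounds that overlapped. These were Nr4a2 and Egr3 in Cd73N WT, at 0.73 and 0.62 FPKM, and Ier2 and Nr4a1 in both Cd73P libraries. Ier2 and Nr4a1 were at 19.2 and 16.0 FPKM in Cd73P WT, where the bounds met only at 15.8 to 15.9 FPKM. In Cd73P Ezh2-cKO they were at 20.9 and 20.4 FPKM. Overlap of bounds does not show equal levels. The FPKM of Egr1, Nr4a1 and Ier2 lay above its own deposited upper bound in all 4 libraries, so that their intervals rest on the width of those bounds only.

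**Figure D1:**
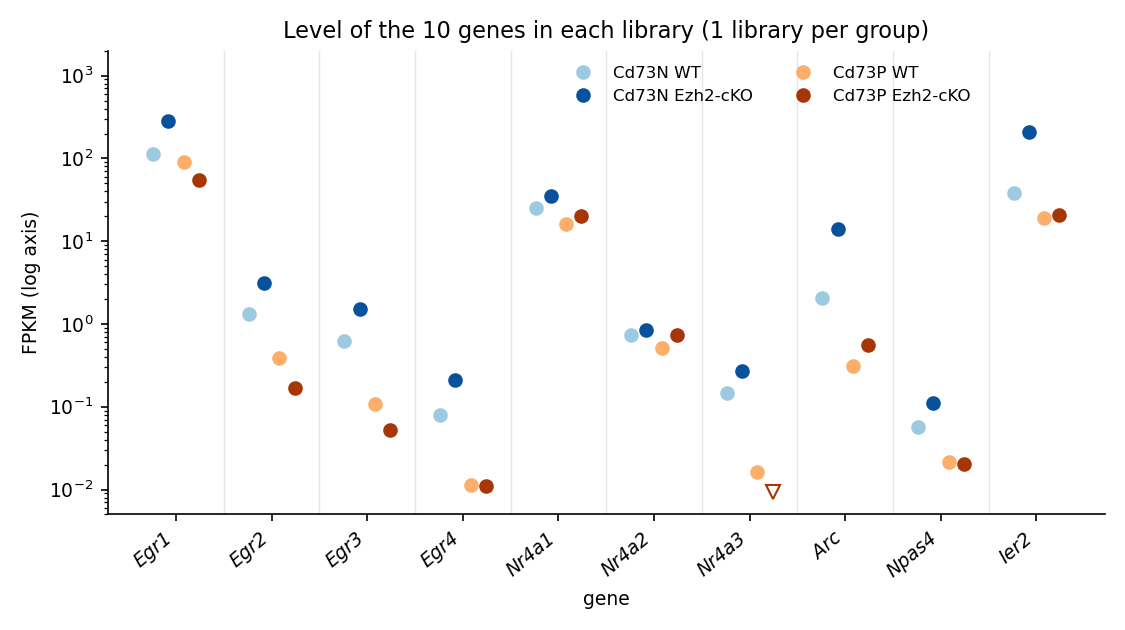
FPKM of each of the 10 genes on a log axis, with 1 point per library (light blue Cd73N WT, dark blue Cd73N Ezh2-cKO, light orange Cd73P WT, dark orange Cd73P Ezh2-cKO). The open triangle stands for Nr4a3, listed at 0 in Cd73P Ezh2-cKO, and is drawn at the 0.0094 FPKM that 3 inferred reads would give. For every gene the dark blue point is the highest of the 4.

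The first comparison asked how the genes differed between genotypes in Cd73N cells, which hold the inner retinal neurons, cones and glia. Egr1, Egr2, Egr3, Arc and Ier2 were higher in the library labelled Ezh2-cKO by at least 1.5-fold on the scale of log2(FPKM + 1), the fold the study used, and none of the 10 was lower. Of all 21706 genes compared, 7.18% were higher and 1.71% were lower at this threshold. Over the 12845 genes at 1 FPKM or more in either library, 11.6% were higher and 2.86% were lower. Of the 6 members at that level, 5 were higher. After scaling to the FPKM sum the shares of all genes were 8.72% and 0.86%, and Nr4a1 was higher too. With a 2-fold threshold Egr1, Arc and Ier2 were left. The median log2 ratio of the 10 genes was 0.55 and that of all genes was 0. FPKM was above the WT value for each of the 10. In bulk libraries of this kind, more cells of an expressing type and more RNA per cell cannot be told apart.

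Ier2 (chromosome 8, 87185230 to 87186751 on mm9, the build of all positions given here) showed the largest difference of the 10 on the log2(FPKM + 1) scale. Its level was 37.8 FPKM in Cd73N WT and 209.7 in Cd73N Ezh2-cKO, against 19.2 and 20.9 FPKM in the Cd73P libraries. The log2 ratio in Cd73N was 2.44 with an SE of 0.041, a plain ratio of 5.54 (95% interval 5.23 to 5.86), which placed Ier2 at rank 44 of 21706 genes. Arc (chromosome 15, 74499513 to 74503000) came next. Its level was 2.03 FPKM in Cd73N WT and 13.8 in Cd73N Ezh2-cKO, which rested on 269 and 2190 reads, and 0.31 and 0.56 FPKM in Cd73P. The Cd73N log2 ratio of Arc was 2.29 with an SE of 0.066, rank 56, and the plain ratio was 6.81 (5.99 to 7.75). The plain ratio of Arc was thus above that of Ier2 and its log2(FPKM + 1) ratio below, since the added 1 FPKM weighs more on a low gene. The Cd73N Ezh2-cKO library was the highest for Ier2 and Arc, and the other 3 libraries lay far below it. For Arc these 3 were not alike, as Cd73N WT was also well above both Cd73P libraries.

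The 4 EGR genes were each above WT in Cd73N Ezh2-cKO. Egr1 (chromosome 18, 35020861 to 35024610), the main member, was 2.49-fold higher in Cd73N Ezh2-cKO than in WT (2.43 to 2.55), with a log2 ratio of 1.31 and an SE of 0.018. Egr2 (chromosome 10, 67000617 to 67004936), known for its part in myelination and hindbrain patterning, had levels of 1.31 and 3.17 FPKM in WT and Ezh2-cKO, from 167 and 485 reads, and the plain ratio was 2.43 (2.03 to 2.91). Egr3 (chromosome 14, 70477252 to 70479964), needed for muscle spindles, was at 0.62 and 1.502 FPKM, with 35 and 101 reads and a ratio of 2.41 (1.63 to 3.65). For Egr4 (chromosome 6, 85461116 to 85463536), the fourth member, the levels were 0.080 and 0.21 FPKM from 7 and 22 reads, a ratio of 2.63 (1.08 to 7.28). The plain ratios of the family ran from 2.41 to 2.63 over WT levels from 113 down to 0.080 FPKM, with wide intervals for Egr3 and Egr4, and differences between the 4 genes were not tested. On the log2(FPKM + 1) scale they were spread out, at 1.31, 0.85, 0.62 and 0.16 from Egr1 to Egr4, and Egr4 did not pass the threshold.

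None of the 3 NR4A receptors passed the threshold in Cd73N. Nr4a1 (Nur77, chromosome 15, 101097277 to 101105225), which takes part in T cell selection and in the response to stress, was at 25.2 FPKM in Cd73N WT and 35.4 in Cd73N Ezh2-cKO. Its ratio was 1.40 (1.31 to 1.49), with a log2 ratio of 0.47 and an SE of 0.046, short of the threshold. Nr4a2 (Nurr1, chromosome 2, 56959637 to 56976414), needed for midbrain dopamine neurons, was at 0.73 and 0.85 FPKM, a ratio of 1.17 whose interval of 0.90 to 1.53 included equal levels. Nr4a3 (chromosome 4, 48064120 to 48096224) was at 0.15 and 0.27 FPKM from an inferred 46 and 100 reads, a ratio of 1.82 (1.27 to 2.64). Its deposited bounds were wider than these reads give. They were 0.069 to 0.218 FPKM in WT and 0.163 to 0.374 in Ezh2-cKO and overlapped, so a difference beyond counting error is not settled. Npas4 (chromosome 19, 4984355 to 4989971) was at 0.056 and 0.11 FPKM from 8 and 19 reads, and its ratio of 1.99 had an interval of 0.83 to 5.24. The calcium-induced neuronal factor was thus close to the detection limit in Cd73N cells of both genotypes, while Arc and Ier2 were not.

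Ratios between single members differed between the 2 Cd73N libraries. Within a library, Egr1 was 4.50 times Nr4a1 in Cd73N WT and 7.98 times in Cd73N Ezh2-cKO. Ier2 was at 0.33 of the Egr1 level in Cd73N WT and at 0.74 in Cd73N Ezh2-cKO. These ratios do not depend on how the libraries are scaled to each other.

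**Figure D2:**
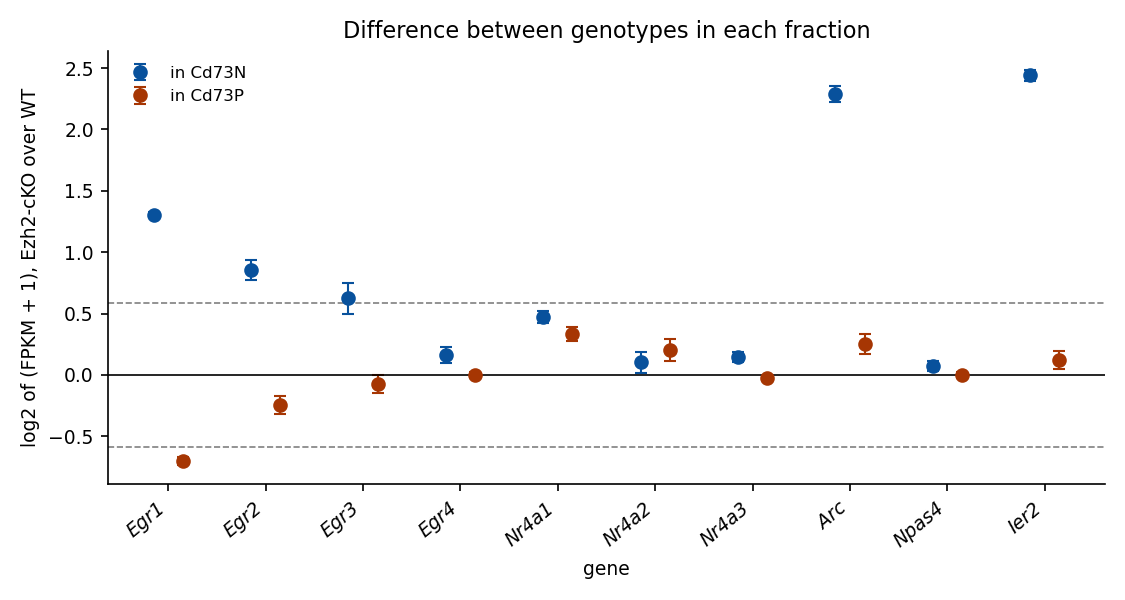
Log2 ratio of FPKM + 1 between the library labelled Ezh2-cKO and WT for each gene, in Cd73N (blue) and Cd73P (orange). Bars are counting standard errors and dashed lines mark 1.5-fold. In Cd73N 5 genes lie above the upper line, and in Cd73P Egr1 alone lies below the lower line.

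The same comparison in Cd73P cells, mostly rods, gave another picture. Egr1 was lower in the library labelled Ezh2-cKO, and it was the only member past the threshold, as none was higher. Over 21707 genes, 2.26% were higher and 2.39% were lower in Cd73P. Over the 10682 genes at 1 FPKM or more in either library, these shares were 4.32% and 4.54%. The level of Egr1 was 90.9 FPKM in Cd73P WT and 55.5 in Cd73P Ezh2-cKO, a ratio of 0.61 (0.59 to 0.64). On the log2(FPKM + 1) scale the difference was -0.70 with an SE of 0.030. With a 2-fold threshold no member was past it in this fraction.

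Egr2 pointed the same way at low levels, from 0.39 to 0.17 FPKM in Cd73P on 49 and 22 reads, a ratio of 0.43 (0.25 to 0.73), but its log2 ratio of -0.25 did not reach the threshold. Egr3 was at 6 and 3 reads, with a ratio of 0.48 and an interval from 0.078 to 2.26, so a difference was not detectable at this depth. Egr4 had 1 read in each Cd73P library, and Npas4 had 3 in each, which allows no comparison. Nr4a3 was at an inferred 5 reads in Cd73P WT and 0 in Ezh2-cKO, where 3 such reads would have given 0.0094 FPKM. Its deposited upper bound in Cd73P WT was 0.058 FPKM, far above its value of 0.016.

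The other readable members were above WT in Cd73P by less than 1.5-fold on the log2(FPKM + 1) scale. Nr4a1 was at 16.0 and 20.4 FPKM, a ratio of 1.28 (1.18 to 1.39). Nr4a2 was at 0.51 and 0.74 FPKM, a ratio of 1.45 (1.06 to 1.99), and Arc at 0.31 and 0.56 FPKM, a ratio of 1.79 (1.21 to 2.69) from 41 and 76 reads. Ier2, which differed most in Cd73N, was at 19.2 and 20.9 FPKM in Cd73P, a ratio of 1.09 (0.98 to 1.22). The Egr1 to Nr4a1 ratio went from 5.69 in Cd73P WT to 2.72 in Cd73P Ezh2-cKO, the reverse of its course in Cd73N. Whether the genotype difference itself differed between the fractions could not be tested with 1 library per group.

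The fractions were then compared within each genotype. In WT, Egr2, Nr4a1, Arc and Ier2 were lower in Cd73P than in Cd73N by at least 1.5-fold and none was higher, where 27.9% of 21705 genes were lower and 9.08% were higher. In Ezh2-cKO, 6 members were lower, namely Egr1, Egr2, Egr3, Nr4a1, Arc and Ier2, and none was higher, against 29.1% lower and 8.40% higher of 21704 genes. Over genes at 1 FPKM or more in either fraction, 45.9% were lower and 15.4% higher in WT. In Ezh2-cKO these shares were 45.6% and 13.8%. The median log2 ratios of the 10 genes were -0.43 in WT and -1.01 in Ezh2-cKO, and those of all genes were -0.05 and -0.09. The FPKM of each of the 10 genes was lower in Cd73P in both genotypes as deposited, but scaling to the FPKM sum turned the log2 ratio of Egr1 in WT to 0.099, and scaling to the median ratio or to the FPKM sum turned that of Nr4a2 in Ezh2-cKO to 0.032 and 0.0039. In WT scaling to the FPKM sum left Arc alone past the threshold, with 19.9% of all genes lower and 14.8% higher. In Ezh2-cKO scaling to the median ratio left Egr1, Egr2, Egr3, Arc and Ier2, with 24.0% lower and 12.0% higher. These comparisons share their libraries with those between genotypes and are not independent of them.

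By gene, Arc was the most unequal in WT on the log2(FPKM + 1) scale, at 2.03 FPKM in Cd73N and 0.31 in Cd73P, a ratio of 0.15 (0.11 to 0.21). Ier2 was at 37.8 and 19.2 FPKM, a ratio of 0.51, and Nr4a1 at 25.2 and 16.0 FPKM, a ratio of 0.63. Egr1 was nearly even between the WT fractions, at 113 and 90.9 FPKM, a ratio of 0.80 (0.78 to 0.83) with a log2 ratio of -0.32. In Ezh2-cKO, Egr1 was at 0.20 of the Cd73N level in Cd73P, Ier2 at 0.10, Egr2 at 0.053 and Arc at 0.040. The ratio of Nr4a1 was 0.63 in WT and 0.58 in Ezh2-cKO, with intervals of 0.58 to 0.69 and 0.54 to 0.62 that overlapped. Nr4a2 had a ratio of 0.71 (0.51 to 0.97) in WT and of 0.87 (0.67 to 1.13) in Ezh2-cKO, where it was at 0.85 and 0.74 FPKM. These intervals overlapped too. Nr4a3 had an inferred 100 reads in Cd73N Ezh2-cKO, or 0.27 FPKM, and 0 reads in Cd73P Ezh2-cKO.

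**Figure D3:**
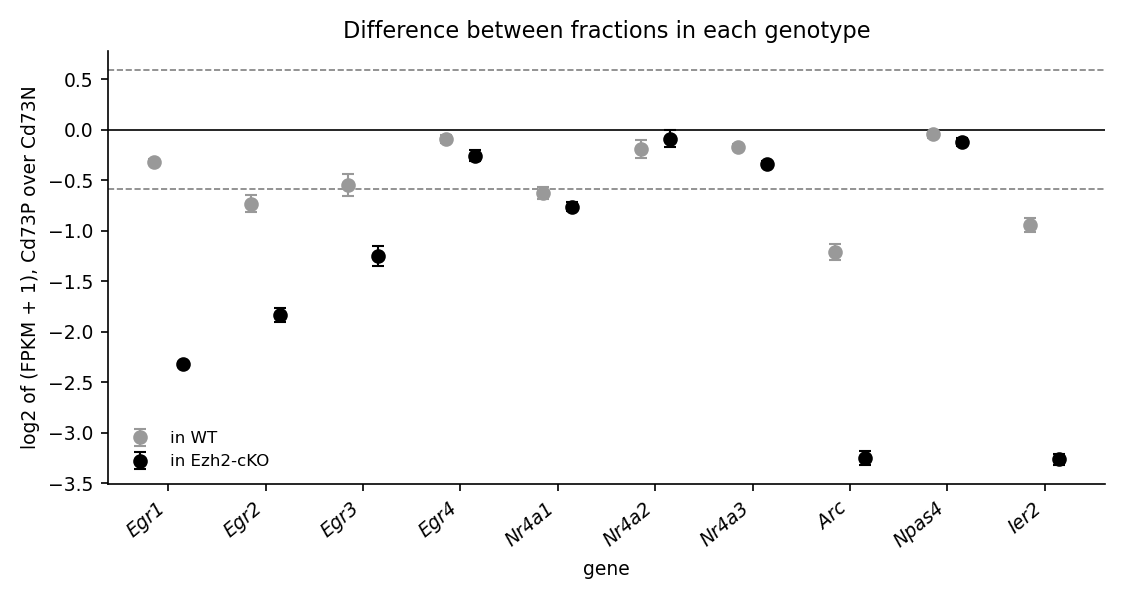
Log2 ratio of FPKM + 1 between Cd73P and Cd73N for each gene, in WT (grey) and in Ezh2-cKO (black). Bars are counting standard errors and dashed lines mark 1.5-fold. The black points of Egr1, Egr2, Egr3, Arc and Ier2 lie well below the grey ones, whereas those of Nr4a1 lie close together.

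Other immediate early genes were read from a list of 36. In Cd73N, 18 of 35 compared were higher in the library labelled Ezh2-cKO and 1 was lower, beside 7.18% and 1.71% of all genes, and the median log2 ratio was 0.65. Fosb, a partner of Jun in AP-1, was at 1.67 FPKM in WT and 33.9 in Ezh2-cKO, or 3.70 as a log2 ratio. Zfp36, which destabilises cytokine mRNA, went from 3.63 to 55.6 FPKM (3.61), and Cyr61, a secreted matrix protein under SRF and YAP control, from 11.3 to 129.6 FPKM (3.41). Klf10, a TGF-beta early response factor, was the gene on the lower side, at 24.7 and 13.5 FPKM (-0.83). The log2 ratios of Fosb, Zfp36 and Cyr61 were larger than those of Ier2 and Arc.

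In Cd73P, 5 of the 36 were higher and 3 were lower, beside 2.26% and 2.39% of all genes, and the median was 0.03. Cyr61 was at 0.54 and 2.77 FPKM (log2 ratio 1.29), Fos at 25.7 and 49.5 FPKM (0.92), and Plk2, a kinase that weakens synapses after activity, at 6.59 and 13.3 FPKM (0.91). Klf10 (-0.96), Gadd45g (-0.78) and Jun (-0.65) were the genes on the lower side, as Egr1 was. Jun was at 26.6 and 16.6 FPKM in Cd73P, a ratio close to that of Egr1.

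Genes of the delayed response encode secreted and synaptic proteins. Of 16, 2 were higher, 2 were lower and 12 were not past the threshold in Cd73N, beside 7.18% higher and 1.71% lower of all genes, with a median log2 ratio of 0.06. Nrn1, a membrane-anchored growth factor, went from 0.88 to 9.10 FPKM (2.42), and Inhba, an activin subunit, from 0.37 to 2.33 FPKM (1.28). Pcdh8, a protocadherin of synapses, was at 16.4 and 8.02 FPKM (-0.95), and Scg2, a secretory granule protein, at 216 and 118 FPKM (-0.86). In Cd73P 1 was higher and 1 was lower, beside 2.26% and 2.39% of all genes, Nrn1 from 0.047 to 7.75 FPKM (3.06) and Nptx2, a pentraxin that clusters glutamate receptors, from 1.83 to 0.50 FPKM (-0.91).

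The next list held kinases and factors upstream of the 10 genes. Of 22, such as Srf, Creb1 and the Mapk and Camk kinases, 1 was higher and 0 were lower in Cd73N, beside 7.18% and 1.71% of all genes, with a median log2 ratio of 0.08. That gene was Elk3, an ETS factor that binds with SRF, at 3.81 FPKM in WT and 6.99 in Ezh2-cKO (0.73). In Cd73P 1 of the 22 was higher and 0 were lower, beside 2.26% and 2.39% of all genes. This was Mef2c, a calcium-regulated factor of neurons and muscle, which went from 0.77 to 10.3 FPKM (2.67). The 7 partners and corepressors were Nab1 and Nab2 for the EGR proteins, the 3 Rxr genes for Nr4a1 and Nr4a2, and Arnt and Arnt2 for Npas4. They held 0 genes past the threshold in either direction and in either fraction, beside the same shares of all genes. Their medians were 0.19 in Cd73N and -0.14 in Cd73P.

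**Figure D4:**
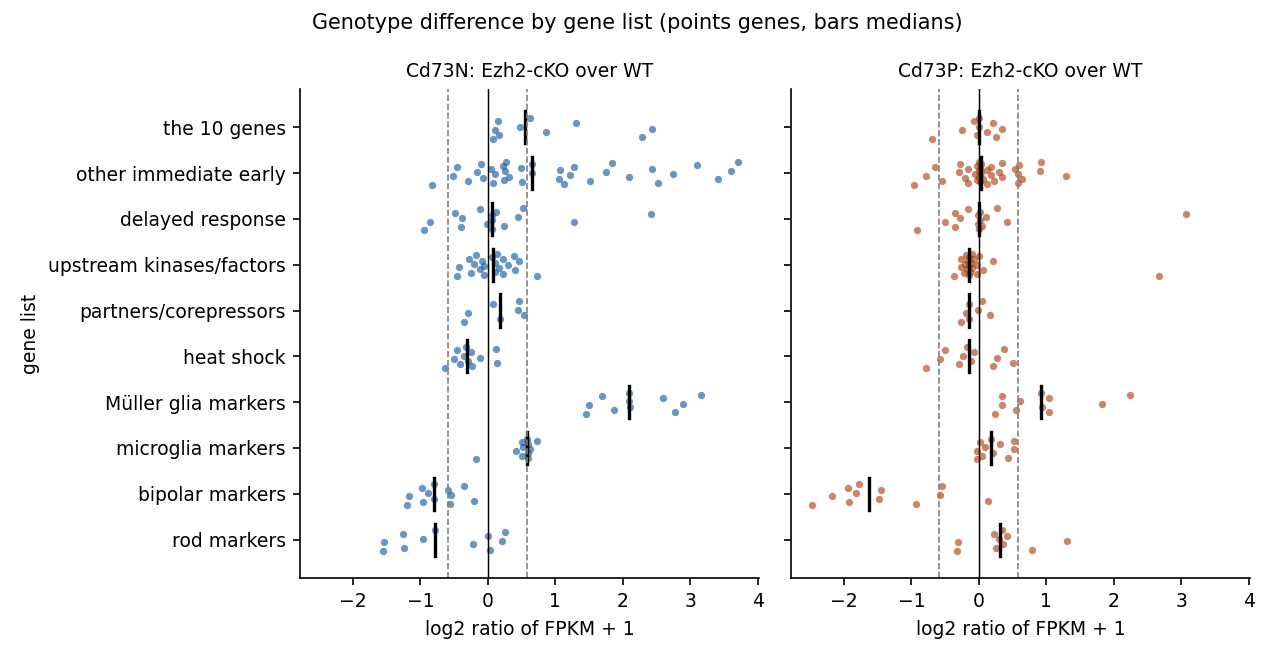
Log2 ratio of FPKM + 1 between the library labelled Ezh2-cKO and WT in Cd73N (left) and Cd73P (right), with 1 point per gene, a bar at the median of each list, and dashed lines at 1.5-fold. In Cd73N the 10 genes and the other immediate early genes reach far to the right, the Müller glia markers lie wholly beyond the upper line, and the upstream and heat shock lists stay near the middle.

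Markers of cell types and stress genes are given beside these results. Their counts stand against all-gene shares of 7.18% (higher) and 1.71% (lower) for Cd73N and of 2.26% and 2.39% for Cd73P. Over genes at 1 FPKM or more in either library, where most of these markers lay, the shares were larger. They were 11.6% and 2.86% for Cd73N, and 4.32% and 4.54% for Cd73P. No test was made of these counts, and the shorter lists hold few called genes. In Cd73N Ezh2-cKO all 11 Müller glia markers were higher, their median log2 ratio was 2.099, and their summed FPKM went from 1111 to 5682. Aqp4 went from 6.89 to 69.6 FPKM, Dkk3 from 123 to 916 and Glul from 257 to 1760. In Cd73P 7 of the 11 were higher, with sums of 117 and 241 FPKM, and no marker of the list was at 0 in any library. Of 11 microglia markers, 5 were higher in Cd73N (sums of 121 and 182 FPKM) and 0 in Cd73P. Among 5 astrocyte markers, 3 were higher in Cd73N (sums of 9.22 and 25.1 FPKM), and 1 of 10 vascular markers was higher and 1 lower (sums of 252 and 344 FPKM). Bipolar markers were lower in 8 of 12 in Cd73N and 9 of 12 in Cd73P. Of the inner retinal neurons, 2 of 8 amacrine markers and 2 of 12 ganglion cell markers were higher in Cd73N, with 0 and 1 lower. Cone markers were higher in 3 of 9 and rod markers lower in 6 of 11 in Cd73N, while in Cd73P 6 of 9 cone markers were lower and 2 of 10 rod markers were higher. The part of these cell types in the levels of the 10 genes was not tested. Heat shock genes, which respond to protein damage, held 0 higher and 1 lower of 12 in each fraction. The lower gene was Hspa5, an endoplasmic reticulum chaperone, with log2 ratios of -0.63 and -0.78, and the list medians were -0.31 and -0.14.

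The genes whose profile over the 4 libraries was most like that of a member were ranked by Euclidean distance between centred log2(FPKM + 1) values, over 7599 genes that reached 10 FPKM in a library. With 4 libraries this describes the profile only. For Ier2 the nearest gene was Arc, at a distance of 0.19, and Ier2 was in turn the fifth nearest to Arc. Arc reached 10 FPKM in Cd73N Ezh2-cKO alone, as did its 3 nearest genes, so a peak in that library was set by the filter and is no result. The 3 genes nearest to Arc were Slc7a2, Bmpr1b and Ntn4, an amino acid transporter, a BMP receptor and a netrin, at distances of 0.11 to 0.16. Slc7a2 was at 1.64 FPKM in Cd73N WT and 10.6 in Cd73N Ezh2-cKO. Nearest to Egr1 were Ezr, Tmem98 and Epas1, at distances of 0.16 to 0.39. Ezr, a linker of membrane and actin, was at 8.37, 21.0, 6.20 and 4.05 FPKM in the order Cd73N WT, Cd73N Ezh2-cKO, Cd73P WT and Cd73P Ezh2-cKO. Ezr and Tmem98 also passed the filter through Cd73N Ezh2-cKO alone, so their peak in that library is no result. Nr4a1 was nearest to 0610010O12Rik, Aldh7a1 and Coq5, at distances of 0.070 to 0.15. Aldh7a1 and Coq5 likewise passed the filter through Cd73N Ezh2-cKO alone. Of the members, only Egr1, Nr4a1, Arc and Ier2 reached 10 FPKM and could be ranked. None of these was among the 3 nearest to Egr1 or Nr4a1, and for the remaining members the ranking cannot say.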

How the data were processed

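RNA-seq tables of 4 libraries were used, with groups taken from the sample titles. Per the authors' methods, poly(A) RNA was read as 36-base single ends, converted with bcl2fastq 1.8.4, aligned to mm9 with TopHat 2.0.8b (coverage search, up to 50 hits per read) and quantified with Cufflinks 2.1.1 on RefSeq genes. The deposited values are FPKM with a lower and an upper bound, not scaled between libraries, and total counts were not used here. FPKM of Egr1, Nr4a1 and Ier2 lay above its own upper bound in all 4 libraries, so their errors use only the width of the bounds, taken as 4 standard errors.

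Rows of a symbol were summed and 726 small RNA symbols left out. Starts in the tables were raised by 1. FPKM values of low genes fell on steps of whole reads, which gave the relative depths. For 6 members the smallest whole read numbers within 0.03 of a read in all libraries were used for exact binomial 95% intervals. True numbers may be multiples or fractions of these, and the deposited bounds of Nr4a3 were wider than its inferred reads give. To a lesser degree this also held in Cd73N for Egr2, Egr3 and Arc. The printed intervals of these genes are thus narrower than the deposited bounds would give. For Egr1, Nr4a1, Nr4a2 and Ier2 none was found.

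Ratios were taken as log2(FPKM + 1), which understates differences of low genes, and called at 1.5-fold. With 1 library per group no test was made and no p-value computed. Named genes were the 10 members, Ezh2 and Nt5e, up to 3 genes with the largest difference in each direction of each list and genotype comparison (for some lists only the counts are printed), and the 3 nearest genes of each member with at least 10 FPKM. Xist and the Y-linked genes were added after their values were known. The members and lists were chosen with earlier results of these data known. Calculations used Python 3.11.15, numpy 2.4.6, pandas 2.3.3 and scipy 1.17.1. Simulated data were used to check the 1.5-fold calls and the recovery of whole numbers up to a common factor at equal depth. The relative depths and the intervals were not checked in this way.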

Additional observations from a re-analysis of the deposited data

Results flagged for a closer look

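The genotype difference of Egr1 had opposite directions in the fractions, higher in Cd73N and lower in Cd73P of the libraries labelled Ezh2-cKO. The log2 ratio in Cd73N minus that in Cd73P was 2.01 with a counting SE of 0.035. Egr2 also had opposite directions, with a difference of 1.10 and an SE of 0.11 that rested on 49 and 22 reads in Cd73P. Neither difference was tested, since each fraction and genotype had 1 library. Arc and Ier2 had differences of 2.04 and 2.32 between the fractions, and the interval of Ier2 in Cd73P included equal levels, so that it has no direction there.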

How the results depend on the processing

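No paired analysis was possible because each group had 1 library and the labels carry no replicate numbers, and for the same reason no library could be left out. In Cd73N, 3 members were higher with a pseudocount of 5 and 3 with a 2-fold threshold (Egr1, Arc and Ier2), and their median log2 ratio was 0.97 and 0.29 with pseudocounts of 0.1 and 5, 1.31 over the 5 members at 1 FPKM in both libraries and 1.08 over the 6 at 1 FPKM in either. In Cd73P, a pseudocount of 0.1 gave 1 member higher (Arc) and 2 lower (Egr1 and Egr2), a 2-fold threshold gave 0 lower, and the median over the 3 members at 1 FPKM in both libraries was 0.13. Between fractions in WT, 7 members were lower with a pseudocount of 0.1, 1 with 5, 1 with a 2-fold threshold, 1 after scaling to the FPKM sum and 2 of 3 without a pseudocount. The WT medians were -0.83, -0.18, -0.66 over 3 members, -0.73 over 5, and -0.24 and -0.19 after scaling to the median ratio and the FPKM sum. In Ezh2-cKO 3 of 3 members were lower without a pseudocount, and the medians were -2.11 and -0.51 with pseudocounts of 0.1 and 5, -2.35 over 3 members, -2.08 over 6, and -0.84 and -0.88 after scaling. The move with the pseudocount follows from its construction, since it weighs on low genes. The 2-fold threshold, the 1 FPKM limit and the scaling act by construction too. Before the pseudocount, scaling to the median ratio and to the FPKM sum shifted each log2 ratio between fractions by a fixed amount. The shifts were 0.31 and 0.42 in WT, and 0.27 and 0.21 in Ezh2-cKO. Requiring that the deposited bounds do not overlap left each count of members as it was. For Egr1, Nr4a1 and Ier2 those bounds lay below the FPKM itself, so the requirement is no check on these genes. Depth limits Egr3, Egr4, Nr4a3 and Npas4 in Cd73P, with 6 reads or fewer each.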
